A study of Mus musculus with 95 samples.

Results

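The 10 genes described here mark reactive astrocytes and were followed through mouse nucleus accumbens after alcohol dependence: the intermediate filament genes Gfap, Vim, Nes and Synm, the receptor genes Osmr, S1pr3 and Cd44, and the genes of secreted proteins Serpina3n, Lcn2 and Timp1. They were taken by symbol, and all 10 were found among the 55471 features of the count table. Every mouse, naïve ones included, carried the transgene Tg(Aldh1l1-EGFP/Rpl10a)JD130Htz on a B6 and FVB background, in which regulatory sequence of the astrocyte gene Aldh1l1 drives a ribosomal protein fused to green fluorescent protein. Dependent mice had gone through CIE-2BC, 5 rounds of chronic intermittent ethanol (CIE) combined with voluntary drinking, non-dependent mice had the drinking part (2BC) alone, and naïve mice had no ethanol. Ages are not given in the sources used here. Ribosomes that carried the tag were pulled from each brain punch to give an IP library, and RNA set aside before the pull-down gave the input library of the same mouse. There were 46 IP libraries, from 18 dependent, 13 non-dependent and 15 naïve mice, and 49 input libraries, from 18 dependent, 15 non-dependent and 16 naïve mice, of both sexes. The IP reports RNA on ribosomes of cells in which Aldh1l1 is active, so it does not by itself separate astrocytes from any other cell with that activity.

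Astrocytes respond to injury, infection and inflammation by a change of state called reactivity, in which the cytoskeleton of intermediate filaments is remodelled. GFAP and vimentin are the filament proteins most used to recognise it, while nestin and synemin co-assemble with them. Cytokines of the interleukin-6 family act through gp130 and partner receptors such as the oncostatin M receptor, and STAT3 carries their signal to genes that include Gfap. All of the 10 genes except Nes and Synm belong to the set often called pan-reactive, because its genes rise in mouse astrocytes after more than a single kind of insult. Nes and Synm are described with them as filament genes.

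The promoters of 3 members are shown because these genes passed in a treatment comparison described below. Osmr passed only between dependent and non-dependent mice in IP, a call that several alternatives lost. Each is the RefSeq window (GRCm38.p6) of 250 bases before to 50 bases after the annotated start, on the strand of the gene, and capitals mark a match to a motif.
Gfap: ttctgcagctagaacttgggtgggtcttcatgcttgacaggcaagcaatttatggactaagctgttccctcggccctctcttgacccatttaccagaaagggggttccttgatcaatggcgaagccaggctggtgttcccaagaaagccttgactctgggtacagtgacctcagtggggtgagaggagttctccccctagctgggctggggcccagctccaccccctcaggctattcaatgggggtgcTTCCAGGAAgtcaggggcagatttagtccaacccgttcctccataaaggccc
Vim: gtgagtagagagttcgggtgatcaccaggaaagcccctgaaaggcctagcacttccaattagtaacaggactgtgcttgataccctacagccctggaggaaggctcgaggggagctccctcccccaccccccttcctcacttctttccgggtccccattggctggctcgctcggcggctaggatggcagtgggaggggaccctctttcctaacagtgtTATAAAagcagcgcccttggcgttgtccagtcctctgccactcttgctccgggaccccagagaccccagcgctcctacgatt
Osmr: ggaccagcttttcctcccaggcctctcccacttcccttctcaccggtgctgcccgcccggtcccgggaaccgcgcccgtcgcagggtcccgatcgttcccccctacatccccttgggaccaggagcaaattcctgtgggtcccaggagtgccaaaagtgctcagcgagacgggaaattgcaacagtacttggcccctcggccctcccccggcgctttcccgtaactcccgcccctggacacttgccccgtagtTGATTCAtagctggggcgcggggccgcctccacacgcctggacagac
The Gfap window (chr11:102897151-102897450, minus strand) held TTCCAGGAA, a match to the palindromic STAT motif TTCNNNGAA, with its first letter 2 bases before the start. Of 32851 windows of all genes, 8.3% held that motif. The Vim window (chr2:13574061-13574360, plus strand) held the TATA motif TATAAA 32 bases before the start, which 13.62% of windows held on either strand. The Osmr window (chr15:6874264-6874563, minus strand) held TGATTCA, a match to the AP-1 motif TGANTCA that 7.81% of windows held, 3 bases after the start. All 10 members had a window. The only other match among them, with both strands searched for these motifs and for the C/EBP motif TTGCNNAA (10.8% of windows), was TTGCTCAA in the Lcn2 window. No motif was found to overlap another in these windows.

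Total counts ran from 14314236 to 27146790 in an IP library and from 12803108 to 23948193 in an input library. The labels place the mice in 6 batches, and batches differed in treatment. Batch I held 7 dependent and 7 non-dependent IP libraries and no naïve mouse, batch L held 3 dependent and 7 naïve libraries and no non-dependent mouse, and only J and K held all treatments. The dependent mice of batch K were all male, while its other groups held both sexes. Differences within K therefore do not separate treatment from sex. A mouse is named by the letter of its batch and a number. The astrocyte label held in the IP. All 10 astrocyte markers (Aldh1l1, Slc1a3, Aqp4 and others) were higher in IP than in input, and all 10 markers each of neurons, medium spiny neurons, microglia and endothelial cells were lower. Of 10 oligodendrocyte markers 9 were lower and 1 was higher, of 6 markers of oligodendrocyte precursors 4 were lower and 1 was higher, and of 10 mural and fibroblast markers 5 were lower and 2 were higher. Of 6 ependymal markers, 4 were higher in IP and 1 was lower. The median difference of the ependymal list was 0.16 on the log2 scale, against 3.10 for astrocytes.

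The first comparison asked which of the genes were enriched on astrocyte ribosomes. Of the 10, 6 were higher in IP, 2 were lower and 2 did not pass, in a test in which 78.5% of all 21743 genes passed, 33.6% as higher and 45% as lower. Gfap stood at a median of 487 CPM (counts scaled to a common library total) over the IP libraries (147 to 2326) and 52.5 CPM over the input libraries (12.7 to 268). The difference was a log2 fold change of 3.43 ± 0.05 (SE, edgeR, adjusted p = 1.7e-56), and each of the 46 mice had more Gfap in its IP. Osmr, the oncostatin M receptor subunit, had a median of 6.93 CPM over IP libraries against 1.33 CPM over input libraries (log2 fold change 2.52 ± 0.12, adjusted p = 2.62e-28), and all 46 mice had more in IP. Vim stood at 64.2 CPM in IP libraries and at 17.3 CPM in input libraries (medians, log2 fold change 2.02 ± 0.05, adjusted p = 2.92e-42), again with more in IP in all 46 mice. Serpina3n, a secreted serine protease inhibitor, followed at 1.92 ± 0.11 (adjusted p = 1.41e-23) with 44 of 46 mice in that direction. Cd44, a surface receptor for hyaluronan, followed at 1.66 ± 0.14 (adjusted p = 1.12e-16) with 41 mice in that direction.

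The remaining filament genes were not enriched to that degree. Nes, which encodes nestin, differed by 0.40 ± 0.15 (adjusted p = 0.0152), with 32 of 46 mice in that direction, and with the naïve mice alone its adjusted p was 0.0511. Synm, which encodes synemin, was lower in IP (-0.26 ± 0.07, adjusted p = 0.000377), in 37 of 46 mice. S1pr3, a receptor for sphingosine 1-phosphate, differed by -0.26 ± 0.16 and did not pass (adjusted p = 0.12). Its level was lower in the IP of 35 mice, and it passed without the pairing of the libraries by mouse (-0.49, adjusted p = 0.0162), with a separate dispersion estimate (-0.68, adjusted p = 0.000805) and in naïve mice alone (-0.78, adjusted p = 0.00588). Lcn2, an iron-siderophore binding lipocalin, was at 0 counts in 27 of 46 IP libraries and 23 of 49 input libraries and did not exceed 74 counts in any. Timp1, an inhibitor of matrix metalloproteinases, was at 0 in 30 IP and 31 input libraries, with at most 30 counts. Lcn2 passed as lower in IP (adjusted p = 0.0312), not so with a separate dispersion estimate, and Timp1 did not pass (adjusted p = 0.12). No fold change is given for either.

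**Figure D1:**
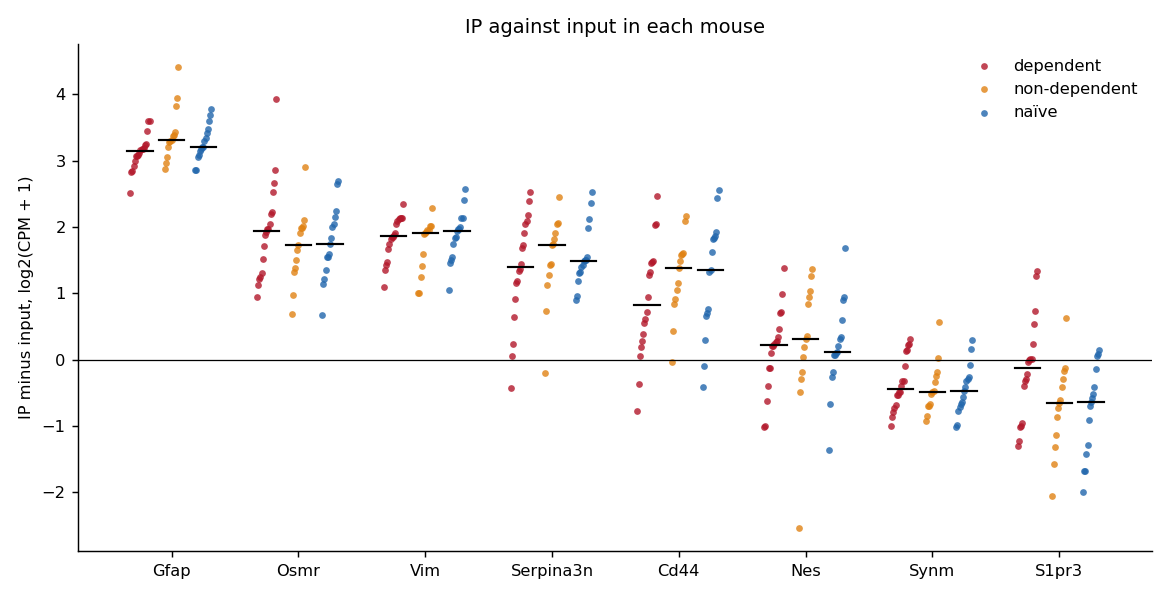
Difference between the IP and the input library of each mouse in log2(CPM + 1), for 8 genes, with dependent, non-dependent and naïve mice as coloured points from left to right and black bars at the medians. All 46 mice lie above 0 for Gfap, Osmr and Vim, while Synm lies below 0 in 37 mice.

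Per kilobase of exon, the genes ordered in IP as Gfap (median 115 CPM per kilobase), Vim (13.5), Serpina3n (4.93), Synm (1.06), Cd44 (0.76), Osmr (0.572), S1pr3 (0.36) and Nes (0.348), with Lcn2 and Timp1 at 0. The SDs over libraries were 109 for Gfap and 4.09 for Vim. Neighbours from Synm to Nes lay within each other's SDs, which were 0.352 for Synm, 0.414 for Cd44, 0.263 for Osmr, 0.668 for S1pr3 and 0.206 for Nes. The annotation (GENCODE release M21, GRCm38) places Gfap at chr11:102887336-102900912 and Vim at chr2:13573927-13582826.

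Dependent mice were compared with naïve mice to ask what differs after dependence. In IP libraries, Gfap and Vim rose and the other 8 members did not pass, so 2 of 10 rose against 2.81% of the 19979 genes tested (4.67% in either direction). The median difference of the 10 was 0.52 on the log2 scale, and that of all genes was 0.00.

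Gfap levels followed batch as well as treatment. Over all batches Gfap ran from 263 to 2326 CPM in dependent mice (median 566, 18 libraries), from 228 to 1463 CPM in non-dependent mice (median 747, 13 libraries) and from 147 to 564 CPM in naïve mice (median 295, 15 libraries). The median of non-dependent mice was the highest, and 7 of their 13 libraries were of batch I, where Gfap was at 724 to 1463 CPM in non-dependent mice and at 580 to 2326 CPM in dependent mice. In batch J it was at 527, 429, 263 and 486 CPM in dependent mice, at 323, 357 and 228 CPM in non-dependent mice and at 219, 219, 151 and 168 CPM in naïve mice. Every dependent and non-dependent mouse of batch J lay above every naïve mouse. These groups are small, and the share of all genes apart in this way in J was not counted. In batch K it was at 292 and 273 CPM in dependent mice, at 235, 823 and 305 CPM in non-dependent mice and at 213, 147, 151 and 295 CPM in naïve mice. In batch L it was at 1105, 1051 and 553 CPM in dependent mice and at 334 to 564 CPM in 7 naïve mice, so that 1 naïve mouse overlapped in each of K and L.

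With batch as a term, Gfap was higher in dependent than in naïve IP libraries by a log2 fold change of 0.98 ± 0.18 (adjusted p = 0.000517). The difference of means of log2(CPM + 1) was 1.14 within batch J, 0.54 within K and 0.92 within L. In batches J and K alone it was 0.92 and did not pass (adjusted p = 0.0903). Leaving out any single mouse left an adjusted p of at most 0.00331. Against non-dependent mice the difference was 0.23 ± 0.17 and did not pass (adjusted p = 0.693). Within batches, that difference was 0.38 in I, 0.47 in J and -0.46 in K, where a single non-dependent mouse, K15, was at 823 CPM. Mouse K15 had the highest IP to input ratio of Gfap of the 46 mice (4.41 as a difference in log2(CPM + 1)), and it was the mouse whose IP and input libraries had a negative correlation over genes after treatment by sex means were removed (-0.26, against a median of 0.653). Without that mouse it was 0.41 (adjusted p = 0.278).

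Vim separated dependent from naïve mice in each batch that held both. In batch J, IP libraries of dependent mice had 108, 70.7, 92.0 and 79.2 CPM and those of naïve mice 44, 63.5, 55.0 and 41.4 CPM. In batch K, dependent mice, all male, had 70.6 and 63.6 CPM and naïve mice of both sexes 45.4, 34.3, 32.1 and 54.4 CPM. In batch L, dependent mice had 94.3, 81.6 and 91.2 CPM and naïve mice 19.1 to 77.4 CPM (7 libraries, median 55.5). No dependent mouse overlapped a naïve mouse of its batch, in IP or in input. Of the 10 members Vim alone had this pattern, which 0.25% of the genes tested in IP and 0.0609% of those tested in input had. The fitted difference in IP was 0.80 ± 0.12 (adjusted p = 2.41e-05), with 0.77 within J, 0.71 within K and 0.86 within L. Against non-dependent mice, whose IP libraries had 38.9 to 105 CPM (median 59.5), the difference was 0.33 ± 0.12 and did not pass (adjusted p = 0.157).

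**Figure D2:**
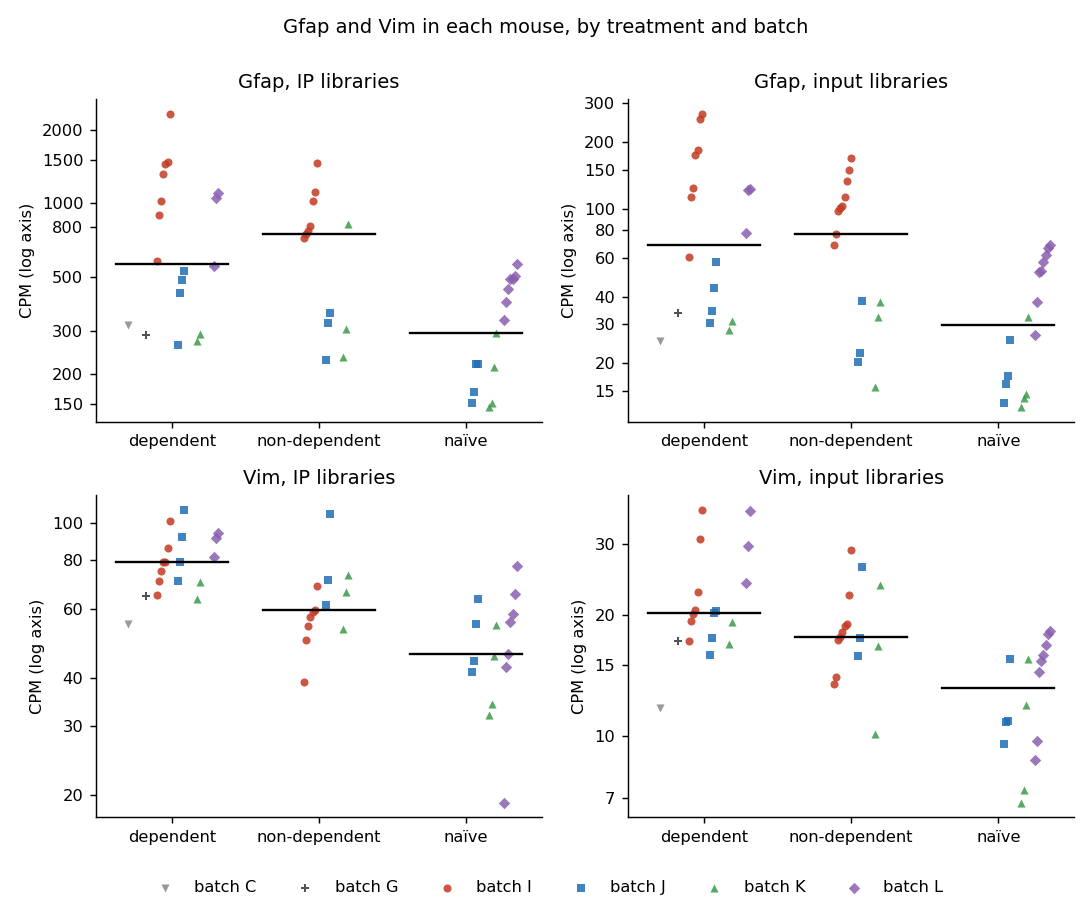
CPM (log axis) of Gfap and Vim in each mouse, IP on the left and input on the right, with dependent, non-dependent and naïve mice from left to right, batches as colours and symbols and black bars at the medians. Batch I, which has no naïve mouse, holds the highest Gfap levels in IP (up to 2326 CPM), while Vim differs less between batches.

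Markers of some other cells moved with these groups, with ranges that overlapped. The summed medium spiny neuron markers had medians of 2680 CPM in dependent, 3207 CPM in non-dependent and 3388 CPM in naïve IP libraries. In input their medians were 7767, 8503 and 9701 CPM in the same order. The cause of this was not tested. The summed level of the 6 ependymal markers in IP was 27.7 to 174 CPM in dependent mice (median 80.6), 18.4 to 161 CPM in non-dependent mice (median 52.8) and 10.3 to 104 CPM in naïve mice (median 43.7). None of the 6 was at 0 in every library of a group, and 2 of them, the cilia genes Rsph1 (0.76 ± 0.20, adjusted p = 0.021) and Dynlrb2 (1.12 ± 0.31, adjusted p = 0.0255), rose in dependent against naïve IP. With the mean level of the ependymal markers in the fit, an alternative chosen after seeing the data, Vim differed by 0.57 (adjusted p = 0.0177) and Gfap by 1.04 (adjusted p = 0.00653) in IP. Without these markers Vim differed by 0.80 and Gfap by 0.98. Over all genes, 273 passed with the ependymal markers in the fit and 933 without them. With the mean level of microglia markers instead, Vim differed by 0.72 and Gfap by 0.91, and both passed. Summed microglia markers in IP were 144 to 595 CPM in dependent mice, 163 to 227 CPM in non-dependent mice and 157 to 229 CPM in naïve mice, with the highest in mouse I02. The summed astrocyte markers had medians of 23793 CPM in dependent, 23297 CPM in non-dependent and 25312 CPM in naïve IP libraries. Of the 10 astrocyte markers, the connexin gene Gjb6 (0.72 ± 0.13, adjusted p = 0.000255) and the growth factor receptor gene Fgfr3 (0.26 ± 0.08, adjusted p = 0.043) rose in dependent against naïve IP, and the median difference of the list was -0.06.

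**Figure D3:**
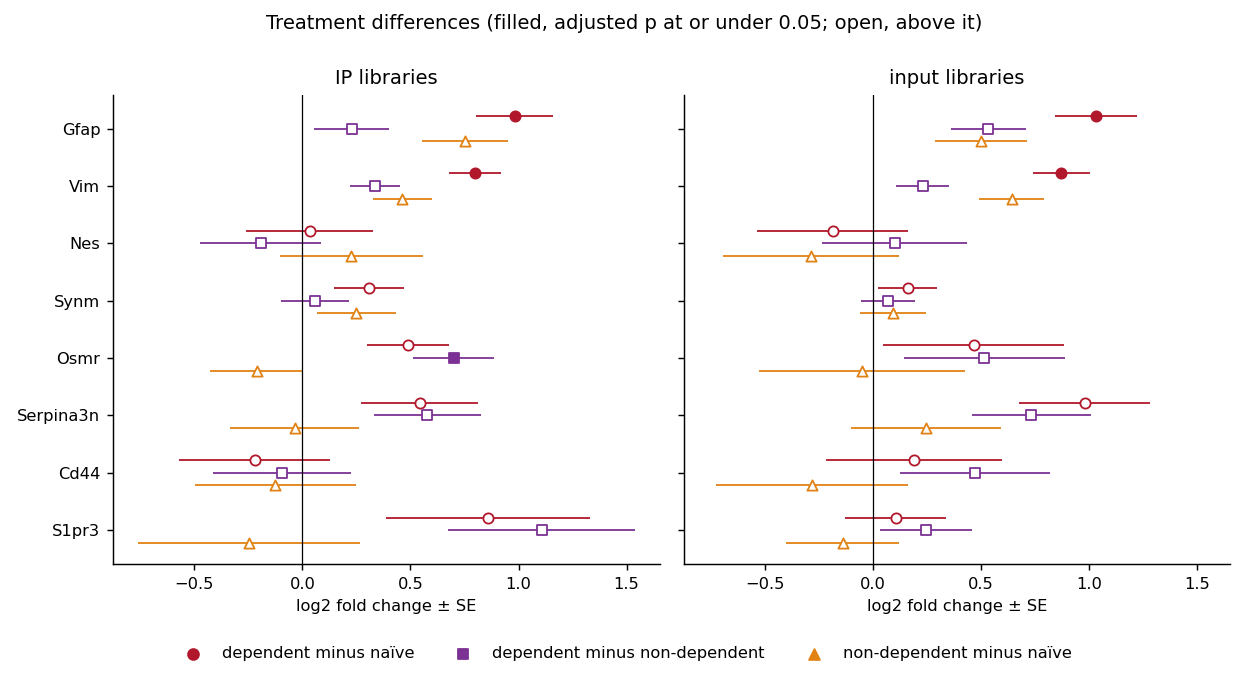
Log2 fold change ± SE of 8 genes between treatments in IP (left) and input (right), filled where the adjusted p was at or under 0.05. Gfap and Vim are filled for dependent minus naïve in both panels, and Osmr is filled for dependent minus non-dependent in IP.

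Among the receptors, Osmr was the member that differed between dependent and non-dependent mice, a comparison that asks what CIE adds to drinking. It passed as 1 of 10 members, against 1.1% of genes higher (1.54% in either direction). Osmr in IP was at 5.26 to 18.6 CPM in dependent mice (median 8.39), at 2.86 to 12.6 CPM in non-dependent mice (median 6.22) and at 2.99 to 9.06 CPM in naïve mice (median 6.34). In batch J it was at 9.58, 8.45, 9.53 and 7.61 CPM in dependent mice and at 5.06, 6.22 and 7.08 CPM in non-dependent mice. In batch K it was at 8.19 and 7.18 CPM in dependent mice and at 4.84, 6.36 and 4.36 CPM in non-dependent mice. The groups did not overlap in J or K, and overlapped in batch I (6.74 to 18.6 CPM in dependent and 2.86 to 12.6 CPM in non-dependent mice). These groups of J and K are small, and the share of all genes that were apart in this way was not counted. S1pr3 was also apart in J (0.66, higher in dependent mice) and Cd44 in K (-1.47, lower in dependent mice). The fitted difference of Osmr was 0.70 ± 0.19 (adjusted p = 0.0377), with 0.70 within I, 0.47 within J and 0.50 within K. Without any 1 of 11 mice (I01, I02, I03, I05, I11, I16, J03, J09, J11, K16 or K18) the adjusted p lay between 0.05005 and 0.0970. The call was also lost with microglia markers in the fit (0.61, adjusted p = 0.115) and with neuron and oligodendrocyte markers in it (0.62, adjusted p = 0.159), at a similar size. Mouse I02 had the highest Osmr level in IP and the highest microglia sum in both fractions (595 CPM in IP and 1068 CPM in input). It also had the highest IP to input ratio of Osmr of the 46 mice (3.93 as a difference in log2(CPM + 1)). In input, Osmr of the dependent mice of batch I was at 0.280 to 5.61 CPM, so this ratio rests on a low input level. The microglia complement genes C1qa (0.75 ± 0.17, adjusted p = 0.0117) and C1qb (0.69 ± 0.18, adjusted p = 0.0393) rose between dependent and non-dependent IP. They belong to the list of 10 microglia markers. The sum of that list in IP had medians of 209 CPM in dependent and 184 CPM in non-dependent mice, with ranges that overlapped. Whether microglia contribute to the Osmr difference was not tested. Against naïve mice Osmr differed by 0.49 ± 0.19 and did not pass (adjusted p = 0.152). Both comparisons share the dependent mice.

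S1pr3 varied widely between mice. In IP it was at 0.368 to 14.03 CPM in dependent mice (median 2.35), at 0 to 6.13 CPM in non-dependent mice (median 1.51) and at 0.3 to 5.96 CPM in naïve mice (median 1.12). In batch I its median was 6.34 CPM in dependent and 1.82 CPM in non-dependent mice, while in batch K the 2 dependent mice had 0.368 and 0.622 CPM. The difference was 1.11 ± 0.43 against non-dependent mice (adjusted p = 0.24) and 0.86 ± 0.47 against naïve mice (adjusted p = 0.38). Neither passed with edgeR. The difference from non-dependent mice passed with limma voom (1.68, adjusted p = 0.0167) and with no count filter (1.11, adjusted p = 0.0114), but not with DESeq2 (1.10, adjusted p = 0.112). Cd44 was at 1.13 to 14.2 CPM in dependent mice (median 3.84), 1.78 to 10.2 CPM in non-dependent mice (median 5.72) and 1.36 to 9.36 CPM in naïve mice (median 5.71). The groups overlapped over most of their range, and Cd44 differed by -0.09 ± 0.32 against non-dependent mice (adjusted p = 0.959) and by -0.22 ± 0.35 against naïve mice (adjusted p = 0.841).

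Of the secreted products, Serpina3n alone was detected in every library, with 5 to 1446 counts. In IP it was at 3.84 to 56.5 CPM in dependent mice (median 14.5), 3.82 to 26.1 CPM in non-dependent mice (median 10.5) and 3.27 to 16.7 CPM in naïve mice (median 7.57). The highest level was in mouse I11, and batch I held dependent mice at 14.9 to 56.5 CPM and non-dependent mice at 3.82 to 26.1 CPM. Serpina3n differed by 0.54 ± 0.27 against naïve mice (adjusted p = 0.309) and by 0.58 ± 0.25 against non-dependent mice (adjusted p = 0.312), neither of which passed. With the ependymal markers in the fit the difference from naïve mice was 0.03. Serpina3n has close paralogs, and since the counting program is not given, reads that match several of them are an uncertainty of its value. No paralog was detected well enough to be tested in these comparisons. Lcn2 was at 0 counts in 8 of 18 dependent, 10 of 13 non-dependent and 9 of 15 naïve IP libraries, and its highest counts there were 28, 14 and 20. Timp1 was at 0 counts in 10 of 18 dependent, 9 of 13 non-dependent and 11 of 15 naïve IP libraries, and its highest counts were 30, 13 and 9. Neither passed in any treatment comparison in which it was tested.

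Nes and Synm did not pass between treatments. In IP Nes had medians of 2.22 CPM in dependent, 2.21 CPM in non-dependent and 2.30 CPM in naïve mice, with ranges that covered each other for the most part (0.887 to 5.12, 0.402 to 6.49 and 0.396 to 4.68 CPM). It differed by 0.03 ± 0.29 between dependent and naïve mice (adjusted p = 0.978) and by -0.19 ± 0.28 between dependent and non-dependent mice (adjusted p = 0.884). Synm had medians of 9.41 CPM in dependent, 8.58 CPM in non-dependent and 8.002 CPM in naïve mice. It differed by 0.31 ± 0.16 between dependent and naïve mice (adjusted p = 0.343) and by 0.06 ± 0.16 between dependent and non-dependent mice (adjusted p = 0.947).

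**Figure D4:**
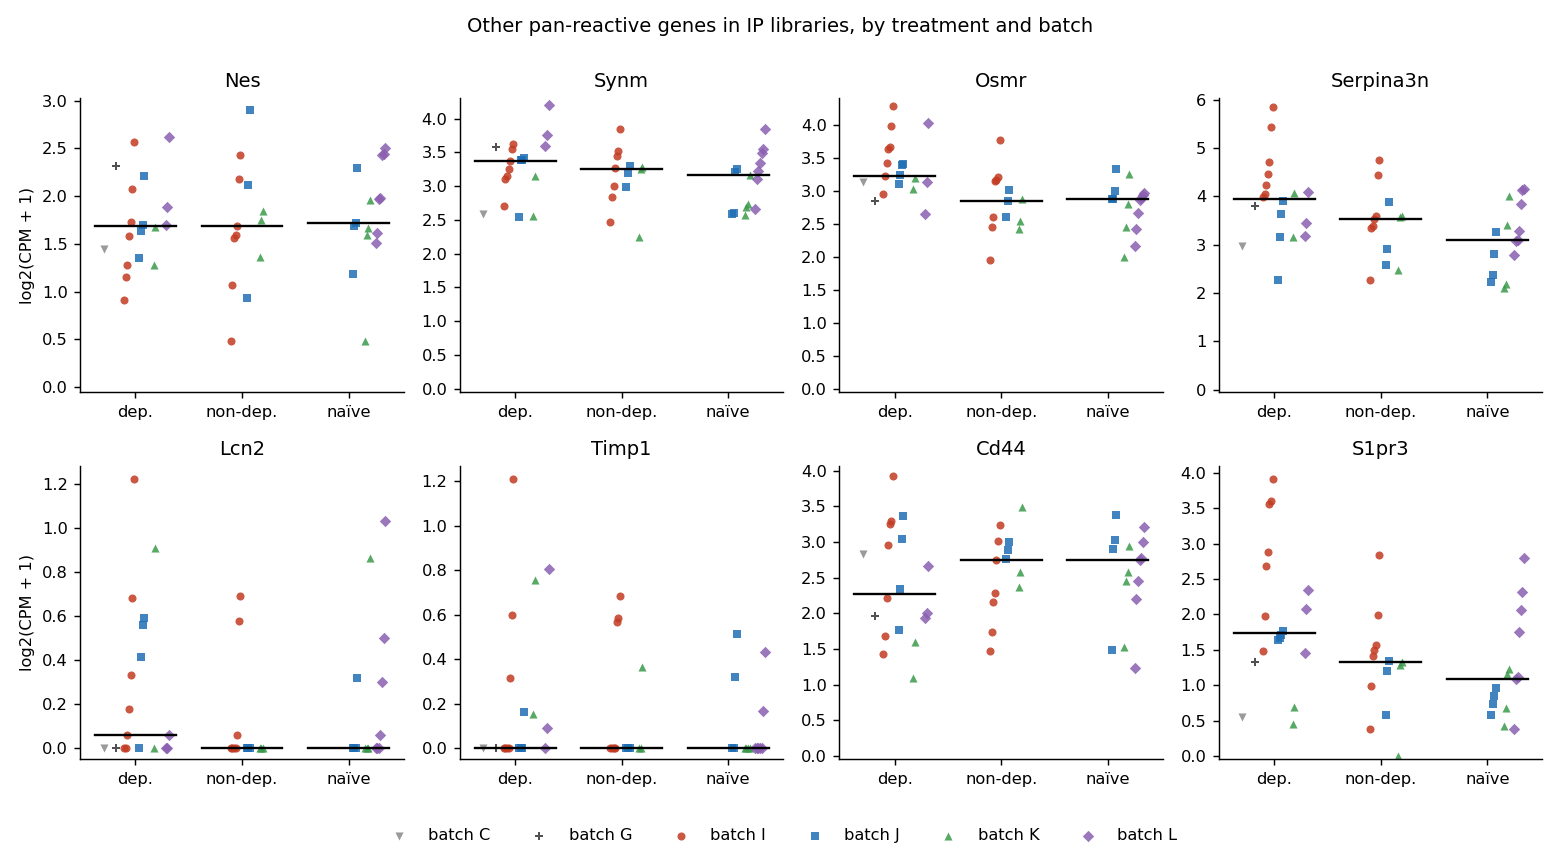
Levels in log2(CPM + 1) of the other 8 genes in each IP library, with dependent, non-dependent and naïve mice from left to right, batches as colours and symbols and black bars at the medians. Osmr in batches J and K, with 2 to 4 mice a group, is higher in every dependent than in every non-dependent mouse. Lcn2 and Timp1 are at 0 in 27 and 30 libraries.

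Non-dependent mice, compared with naïve mice to ask what drinking alone changes, had no member past the threshold in IP with edgeR (0.44% of genes passed), while 2 members had an unadjusted p under 0.05. These were Gfap, at 0.75 ± 0.20 (adjusted p = 0.0704), and Vim, at 0.46 ± 0.13 (adjusted p = 0.106). DESeq2 called both and limma voom called 0. Gfap passed without any 1 of the mice I06, I15 and J11 (adjusted p 0.0322 to 0.0462), and without mouse K15 its difference was 0.50 (adjusted p = 0.372). Within batches Gfap differed by 0.67 in J and 1.01 in K, and Vim by 0.61 in J and 0.64 in K. Osmr differed by -0.21 ± 0.22 (adjusted p = 0.815) and Serpina3n by -0.03 ± 0.30 (adjusted p = 0.986). Only J and K hold both of these treatments, and dependent mice connect the rest of the fit.

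In the whole tissue the same pair of genes passed between dependent and naïve mice, 2 of 9 members tested against 1.42% of 19691 genes higher (2.38% in either direction). In bulk tissue, a difference in the number of cells of a type and in the RNA per cell cannot be told apart. Input Gfap was at 25.3 to 268 CPM in dependent mice (median 68.8), 15.6 to 169 CPM in non-dependent mice (median 76.7) and 12.7 to 68.4 CPM in naïve mice (median 29.7). Dependent and naïve mice did not overlap in batches J (30.5 to 57.4 and 13.2 to 25.5 CPM) and L (77.4 to 123 and 26.8 to 68.4 CPM), and overlapped in K. The share of all genes apart in J and L was not counted. The difference was 1.03 ± 0.19 (adjusted p = 0.00102). Input Vim was at 11.7 to 36.6 CPM in dependent mice (median 20.2), 10.1 to 28.99 CPM in non-dependent mice (median 17.6) and 6.80 to 18.3 CPM in naïve mice (median 13.1). Its difference was 0.87 ± 0.13 (adjusted p = 6.79e-05), with 0.64 within J, 0.81 within K and 1.01 within L. The summed ependymal markers of input had medians of 78.1 CPM in dependent, 63.4 CPM in non-dependent and 47.7 CPM in naïve mice, and with them in the fit Vim differed by 0.54 (adjusted p = 0.00966). That fit called 260 genes in all, against 469 without the markers. In batches J and K alone neither gene passed in input (Gfap 0.97, adjusted p = 0.121, and Vim 0.71, adjusted p = 0.159).

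Input Serpina3n was at 1.40 to 11.03 CPM in dependent mice (median 5.17), 0.326 to 8.97 CPM in non-dependent mice (median 2.58) and 0.703 to 6.39 CPM in naïve mice (median 1.79). Dependent against naïve mice it differed by 0.98 ± 0.30 and did not pass (adjusted p = 0.0726). It passed with DESeq2 (adjusted p = 0.0291) and limma voom (adjusted p = 0.0376), and without any 1 of the mice K12, K19 and L33 (adjusted p 0.0183 to 0.0351). Input Osmr differed by 0.47 ± 0.42 (adjusted p = 0.727). Between dependent and non-dependent mice no member passed in input with edgeR, DESeq2 or limma voom (0.355% of genes passed with edgeR), and 3 members had an unadjusted p under 0.05. The 3 were Gfap, Serpina3n and the low-count gene Lcn2. Gfap differed there by 0.53 ± 0.17 (adjusted p = 0.274), Vim by 0.23 ± 0.12 (adjusted p = 0.769), Serpina3n by 0.73 ± 0.27 (adjusted p = 0.435) and Osmr by 0.51 ± 0.37 (adjusted p = 0.897). Between non-dependent and naïve mice no member passed in input with edgeR (0.122% of genes passed), DESeq2 and limma voom called 1 each, and 2 had an unadjusted p under 0.05. These were Vim, at 0.64 ± 0.15 (adjusted p = 0.0614), and Gfap, at 0.50 ± 0.21 (adjusted p = 0.58). Vim passed without any 1 of the mice I05, I11, J02, K12, K14 and K20 (adjusted p 0.0193 to 0.0455). Osmr differed by -0.05 ± 0.48 and Serpina3n by 0.25 ± 0.35.

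Whether a treatment difference was larger on astrocyte ribosomes than in the tissue was tested in the same mice. No member passed with edgeR or limma voom for any pair of treatments, where 0.356% of genes passed for dependent against naïve, 0.0923% for dependent against non-dependent and 0% for non-dependent against naïve. Unadjusted p-values were under 0.05 for 0, 3 and 0 members in these comparisons, the 3 being Gfap, Cd44 and S1pr3. For dependent against naïve mice, the difference in IP minus that in input was -0.12 ± 0.11 for Gfap (adjusted p = 0.865), -0.10 ± 0.13 for Vim (adjusted p = 0.924), -0.13 ± 0.39 for Osmr (adjusted p = 0.976) and -0.71 ± 0.36 for Serpina3n (adjusted p = 0.624). For dependent against non-dependent mice it was -0.28 ± 0.10 for Gfap (adjusted p = 0.394), -0.73 ± 0.36 for Cd44 (adjusted p = 0.611), 0.12 ± 0.36 for Osmr (adjusted p = 0.969) and 1.22 ± 0.36 for S1pr3 (adjusted p = 0.243). A p above the threshold does not show that the fractions responded alike.

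Males and females were compared in the same way. No member passed for a difference between the sexes with edgeR, DESeq2 or limma voom, for dependent against naïve or against non-dependent mice, in IP or input. With edgeR 0% of the 19979 genes tested in IP and of the 19691 tested in input passed. Unadjusted, 1 member (Lcn2 in input, with its low counts) was under 0.05 in 1 of the 4 comparisons. The male minus female difference between dependent and naïve IP was 0.48 ± 0.32 for Gfap and 0.34 ± 0.22 for Vim (adjusted p = 1 for both). Gfap in IP had medians of 566 CPM in dependent, 749 CPM in non-dependent and 315 CPM in naïve females, and of 711, 747 and 219 CPM in the same groups of males. Vim had medians of 77.2 CPM in dependent, 58.2 CPM in non-dependent and 50.3 CPM in naïve females, and of 79.2, 71.1 and 42.6 CPM in males.

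Genes around the members were counted in lists chosen with earlier results of these data known, here for dependent against naïve IP, where 2.81% of all genes rose and 1.86% fell. Of 16 measured genes of gp130 ligands, receptors and STAT3 signalling, Stat3 alone rose (0.46 ± 0.09, adjusted p = 0.00133) and none fell, with a list median of 0.18. Stat3 also rose against non-dependent mice (0.43 ± 0.09, adjusted p = 0.00429). Of 13 other filament and linker genes, the nuclear lamin gene Lmna rose (0.39 ± 0.11, adjusted p = 0.0334) and 12 did not pass, with a median of 0.00. Of 8 sphingosine 1-phosphate genes 2 rose and 2 fell: the receptor S1pr1 fell (-0.26 ± 0.07, adjusted p = 0.016) as did the lipid phosphatase Plpp3 (-0.20 ± 0.06, adjusted p = 0.0431), while the sphingosine phosphate lyase Sgpl1 rose (0.38 ± 0.10, adjusted p = 0.0231). Of 10 TIMP and metalloproteinase genes, the membrane-bound enzymes Mmp14 (-0.51 ± 0.11, adjusted p = 0.00366) and Mmp17 (-0.45 ± 0.13, adjusted p = 0.0373) fell and none rose. Of 10 CD44 and hyaluronan genes, Msn, which links membrane proteins to actin, rose (0.43 ± 0.12, adjusted p = 0.0323). The median of all genes was 0.00.

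Other reactivity lists were set beside the members. Of 11 measured genes of the A1-like list, drawn from astrocytes after inflammation, 7 rose and none fell in dependent against naïve IP, with a median of 1.86. The interferon-induced GTPase Gbp2 rose by 2.85 ± 0.50 (adjusted p = 0.000348), the class I antigen presentation gene H2-D1 by 1.86 ± 0.33 (adjusted p = 0.000448) and the complement inhibitor Serping1 by 2.17 ± 0.41 (adjusted p = 0.000748). Of 9 measured genes of the A2-like list, drawn from astrocytes after ischemia, only Tm4sf1 rose (0.74 ± 0.20, adjusted p = 0.0225), with a median of 0.65. Of 4 other pan-reactive genes none passed against naïve mice, and against non-dependent mice Cp, the copper-carrying ferroxidase ceruloplasmin, rose (0.85 ± 0.22, adjusted p = 0.0346). Of the A1-like list, 6 of 11 rose against non-dependent mice in IP, where 1.1% of all genes rose, and 4 of 11 against naïve mice in input, where 1.42% rose.

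Levels of Gfap were shared between the fractions of a mouse. After treatment by sex and batch means were removed, IP and input Gfap correlated with Pearson's r = 0.81 and Spearman's rho = 0.86 over 44 mice (permutation p = 1e-05 for both, the smallest that 100000 permutations can give, adjusted p = 8e-05 over 8 genes). Without the 2 mice farthest from the median r was 0.83, and within batches I, J, K and L it was 0.91, 0.72, 0.73 and 0.83. For Vim r was 0.52 and rho 0.46 (permutation p = 0.00033 and 0.00215, adjusted 0.00132 and 0.0086), r was 0.38 without the 2 farthest mice, and within the batches r was 0.13, 0.65, 0.62 and 0.83. The other 6 genes had r between -0.10 and 0.35, and none passed the adjustment. The IP and input of a mouse come from the same punch.

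**Figure D5:**
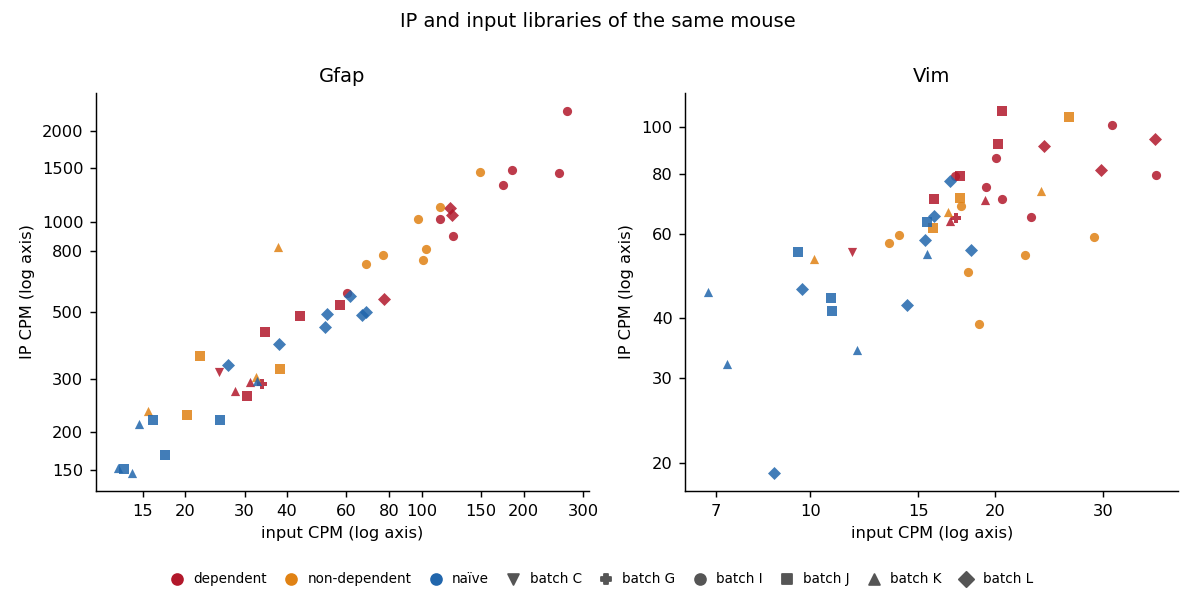
IP against input CPM of Gfap and Vim in the same mouse (both axes log), coloured by treatment and with a symbol per batch. Gfap falls along a line in all groups, while Vim scatters more widely, with r of 0.81 and 0.52 after treatment, sex and batch are removed.

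Between members, 5 of 28 pairs correlated from mouse to mouse in IP by Pearson's r after adjustment over the 28, and 3 of these also by Spearman's rho. Synm and Serpina3n had r = 0.51 and rho = 0.50 (permutation p = 0.00042 and 0.00064, adjusted 0.0118 and 0.0179), with r = 0.48 without the 2 farthest mice and 0.60, 0.38, 0.58 and 0.39 within batches I, J, K and L. Vim and S1pr3 had r = 0.44 and rho = 0.45 (permutation p = 0.00253 and 0.00238, adjusted 0.0352 and 0.0333), with 0.43 without the 2 farthest mice and 0.40, 0.23, 0.78 and 0.60 within the same batches. Nes and Osmr had r = 0.41 and rho = 0.42 (permutation p = 0.00503 and 0.00466, adjusted 0.0352 and 0.0435), with 0.32 without the 2 farthest mice and 0.61, 0.32, 0.43 and -0.06 within the batches. The other pairs passed by r alone. They were Nes with Serpina3n (r = 0.42, rho = 0.35, permutation p = 0.00443 and 0.0197, adjusted 0.0352 and 0.092) and Nes with S1pr3 (r = 0.41, rho = 0.40, permutation p = 0.0064 and 0.0077, adjusted 0.0358 and 0.0534). Without the 2 farthest mice these had r = 0.40 and 0.42. Within the batches r was 0.64, 0.46, 0.08 and 0.11 for Nes with Serpina3n, and 0.61, -0.26, 0.16 and 0.53 for Nes with S1pr3. Gfap passed with no other member. Gfap and Vim correlated with r = 0.15 (rho = 0.20, permutation p = 0.325 and 0.186, adjusted 0.496 and 0.365 over 28 pairs), with 0.15 without the 2 farthest mice. Within batches that r was 0.24 in I, -0.17 in J, 0.68 in K and 0.12 in L. By the same measure over 44 IP libraries and 15124 genes, the genes most like Gfap were Pak1 (r = 0.77), Msmo1 (0.76), Chil1 (0.73), Hmgcs1 (0.73), Pla2g7 (0.72) and Sqle (0.72). Those most like Vim were Hs2st1 (r = 0.73), Cd24a (0.64), Fbln7 (0.64), Pih1d2 (0.60), 1700012B09Rik (0.58) and Odf3b (0.58). Those most like Serpina3n were AW551984 (r = 0.72), Baiap3 (0.71), Igsf1 (0.71), Peg10 (0.70), Gaa (0.70) and Impact (0.69). These values are descriptions, from libraries that share depth and dissection.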

How the data were processed

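RNA of nucleus accumbens punches was measured by RNA sequencing in IP and input libraries, prepared with the SMART-Seq PLUS kit of Takara per the labels' protocols. The values used were the gene counts the authors deposited, in a single table. The submitters' processing notes name STAR 2.7.10b, Trimmomatic 0.39 and FastQC 0.11.9, and the GRCm38 build. The counting program and its use of strand are not given in the sources used here, so overlapping and antisense genes cannot be told apart. Counts were tested in R 4.3.3 by edgeR 4.0.16, quasi-likelihood F test (TMM, filterByExpr with a minimum count of 10 and total of 15, robust), with Benjamini-Hochberg adjustment over all genes tested and calls at an adjusted p at or under 0.05. DESeq2 1.42.0 and limma 3.58.1 (voom) were alternatives.

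Treatments were compared per fraction in batches I to L, with treatment by sex means plus batch terms. A difference averages those of females and males and comes from 16 dependent, 13 non-dependent and 15 naïve IP libraries and 16, 15 and 16 input ones. The single dependent female of batch C and of batch G gave values only. IP and input were compared over 46 mice with the mouse as a block. The pairing of both libraries of a mouse rests on the labels. After treatment by sex means were removed, with batch left in, these correlated with a median of 0.653 over 9486 genes, and over 0.1 in 45 of 46 mice. Libraries of different mice were not correlated for comparison, so these values do not by themselves show the pairing. Each library is of a single mouse. CPM is a count over the library total, without batch adjustment, and within-batch values are means of log2(CPM + 1) with the sexes pooled. Counting error alone limits genes of few counts.

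The members and lists were chosen with earlier results of these data known. The genes named are all 10 members, of each list at most 3 called genes, by smallest p (else the 1 gene of smallest p), and the 6 genes most like Gfap, Vim and Serpina3n. On simulated counts for dependent against naïve IP (19979 genes), 78.6% of 112 genes with a log2 change of 1 were recovered. These counts had the same dispersion for every gene and no batch, sex or mouse effect. The share is therefore not the sensitivity for the members in the real libraries.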

Additional observations from a re-analysis of the deposited data

How the results depend on the processing

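Gfap and Vim between dependent and naïve mice kept their direction and call in IP and input under every alternative run, except in batches J and K alone. There 1 member passed in IP (Vim) and 0 in input, and with no batch term over all 6 batches 4 passed in IP. Between dependent and non-dependent IP, where Osmr passed, limma voom called 2 members (Osmr and S1pr3) and no count filter 4 (these, Serpina3n and Vim). No batch term, batches J and K alone, neuron and oligodendrocyte markers as a covariate and microglia markers as a covariate gave 0 each, and leaving out 1 mouse at a time gave 0 to 1. Between non-dependent and naïve mice, where 0 passed, DESeq2 and no count filter called 2 each in IP, DESeq2, limma voom and no count filter called 1 each in input, and leaving out 1 mouse at a time gave 0 to 1 in either. The cause was not tested. The ependymal and microglia covariates were chosen after seeing the data.

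For IP against input, the fit without the replicate block called 8 members, as did the paired fit, with S1pr3 in place of Lcn2.

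Differences that did not pass and changed sign included Nes between dependent and naïve IP (-0.14 with no batch term, -0.0033 with neuron and oligodendrocyte markers, -0.48 with ependymal markers, -0.074 to 0.18 leaving out 1 mouse), and Cd44 there (0.12 with ependymal markers). Others were Cd44 between dependent and non-dependent IP (-0.29 to 0.050 leaving out 1 mouse) and Serpina3n between non-dependent and naïve IP (0.30 with no batch term, 0.39 in J and K alone, -0.19 to 0.090 leaving out 1 mouse). Osmr changed sign in input between dependent and naïve mice (-0.083 with ependymal markers) and between non-dependent and naïve mice (0.083 with no batch term, 0.023 in J and K alone, -0.33 to 0.13 leaving out 1 mouse). So did Osmr for IP minus input in dependent against naïve mice (0.065 with a separate dispersion estimate) and Gfap for male minus female in dependent against non-dependent IP (0.016 with limma voom). Leaving out 1 mouse also turned the sign of Nes between dependent and non-dependent input (-0.014 to 0.34) and of the low-count gene Lcn2 between dependent and naïve mice in IP and input. Depth limits Lcn2 and Timp1, which were at 0 counts in 50 and 61 of 95 libraries.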
